A study of Homo sapiens with 6 samples.

Results

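The HSP70 family was followed in A549 cells, a human lung adenocarcinoma line, harvested 48 h after they had received either a CELF6 expression plasmid (CELF6-OE) or the plasmid without an insert (Control). CELF6 is an RNA-binding protein of the CELF family. The 10 HSP70 members were taken by gene symbol from the 29889 genes of the count table, namely HSPA1A, HSPA1B, HSPA1L, HSPA2, HSPA4, HSPA5, HSPA6, HSPA8 and HSPA9 and the pseudogene HSPA7. Each group had 3 biological replicates, and both had received Lipofectamine 2000 and the pIRES-hrGFP-1a plasmid, so neither group is untreated. The methods state no selection of transfected cells, and no library came from untransfected cells. Of the members, 9 passed the filter on low counts and were tested, and HSPA7 was not.

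HSP70 proteins are ATP-driven chaperones that hold exposed hydrophobic stretches of unfolded proteins. J-domain proteins bring clients and start ATP hydrolysis, and nucleotide exchange factors such as BAG proteins and HSP110 release them. HSPA8 is the constitutive chaperone of the cytosol, HSPA5 (BiP) works in the endoplasmic reticulum and HSPA9 (mortalin) in mitochondria, whereas HSPA1A, HSPA1B and HSPA6 are known for induction by heat and misfolded protein through the transcription factor HSF1, which binds inverted repeats of GAA in their promoters. HSPA6 is almost silent in most unstressed human cells and has no counterpart in mice.

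The promoters of the members that rose are shown first, together with that of HSPA5, whose stress response is known to run through another element. They were picked after the results were seen, and a part of HSF1 in the changes was not tested. Each window runs from 250 bases before to 50 after the RefSeq start on GRCh38.p14, 5′ to 3′ on the strand of the gene, and capitals mark pairs of heat shock units (GAANNTTC or TTCNNGAA) or, in HSPA5, the ER stress element.
HSPA6, chr1:161524290-161524589, plus strand: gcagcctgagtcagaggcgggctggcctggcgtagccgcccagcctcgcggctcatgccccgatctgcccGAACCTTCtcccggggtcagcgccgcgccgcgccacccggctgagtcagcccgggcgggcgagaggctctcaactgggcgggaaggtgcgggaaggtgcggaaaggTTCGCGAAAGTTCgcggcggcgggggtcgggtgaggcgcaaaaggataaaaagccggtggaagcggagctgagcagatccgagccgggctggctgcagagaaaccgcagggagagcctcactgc
HSPA1A, chr6:31815293-31815592, plus strand: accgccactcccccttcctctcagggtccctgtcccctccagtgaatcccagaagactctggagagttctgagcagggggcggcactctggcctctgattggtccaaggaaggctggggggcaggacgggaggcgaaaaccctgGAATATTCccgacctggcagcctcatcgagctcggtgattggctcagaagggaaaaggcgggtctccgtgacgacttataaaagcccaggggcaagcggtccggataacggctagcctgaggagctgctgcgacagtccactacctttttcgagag
HSPA1B, chr6:31827488-31827787, plus strand: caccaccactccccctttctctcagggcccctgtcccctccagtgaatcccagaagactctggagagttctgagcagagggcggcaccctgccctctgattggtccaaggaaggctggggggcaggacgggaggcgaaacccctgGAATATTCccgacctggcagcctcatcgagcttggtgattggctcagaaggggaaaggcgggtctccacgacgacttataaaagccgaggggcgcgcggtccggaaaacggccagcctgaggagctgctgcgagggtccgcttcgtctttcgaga
HSPA8, chr11:123062087-123062386, minus strand: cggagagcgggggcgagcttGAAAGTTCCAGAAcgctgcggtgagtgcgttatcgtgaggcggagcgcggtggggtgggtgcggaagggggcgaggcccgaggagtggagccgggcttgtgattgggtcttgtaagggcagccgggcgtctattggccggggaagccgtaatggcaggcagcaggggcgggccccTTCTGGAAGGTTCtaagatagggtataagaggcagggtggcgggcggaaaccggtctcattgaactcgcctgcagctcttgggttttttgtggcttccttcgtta
HSPA5, chr9:125241294-125241593, minus strand: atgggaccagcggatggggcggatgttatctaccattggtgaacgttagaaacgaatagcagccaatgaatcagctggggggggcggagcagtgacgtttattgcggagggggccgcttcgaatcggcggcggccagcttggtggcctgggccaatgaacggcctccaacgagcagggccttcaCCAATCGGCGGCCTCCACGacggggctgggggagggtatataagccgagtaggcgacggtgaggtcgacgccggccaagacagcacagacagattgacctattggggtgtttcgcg

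RefSeq held a promoter window for 9 of the 10 members, without HSPA7. A heat shock element of 3 units (GAA, TTC and GAA, or TTC, GAA and TTC, each 2 bases apart) stood in the windows of HSPA6 and HSPA8 and in 0.49% of all 35116 windows. In HSPA6 it began 74 bases before the start, and in HSPA8 there were 2 of them, beginning 230 and 55 bases before it. A pair of units, read alike on both strands, which each longer element also holds, was found in HSPA1A, HSPA1B, HSPA1L and HSPA9 as well, and in 13.5% of all windows. HSPA1A and HSPA1B carried the same pair 106 and 105 bases before their starts, between CCAAT boxes (34.6% of all windows) and followed by a TATAAA box (11.5% of all windows). Their windows had 277 identical positions in an alignment of 301. The windows of HSPA2, HSPA4 and HSPA5 held no pair. HSPA5 alone among the members held the ER stress element (CCAAT and CCACG with 9 bases between them, on either strand). It includes one of the CCAAT boxes of that window and stood in 0.0769% of all windows. HSPA1L and HSPA9, whose windows hold a pair and are not printed, did not pass the test for a change. These are matches of letters, and binding was not measured.

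**Figure D1:**
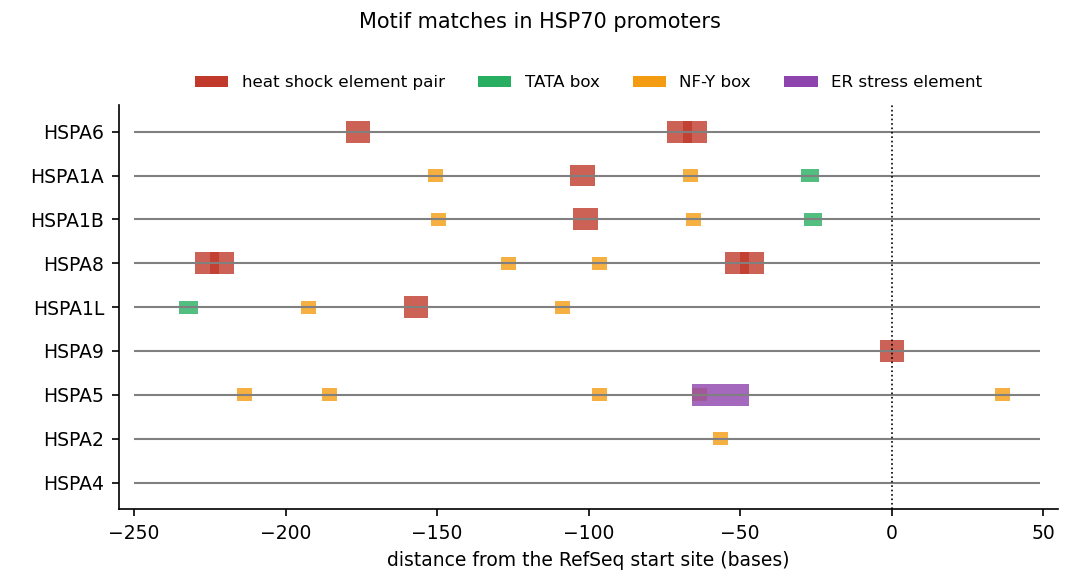
Matches of motifs in the promoter windows of 9 HSP70 members, by distance in bases from the RefSeq start site (dotted line). Boxes of NF-Y are CCAAT matches. HSPA6 and HSPA8 have overlapping pairs of heat shock units, HSPA1A, HSPA1B and HSPA1L have 1 pair, and the ER stress element stands only in HSPA5.

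The check of the transfection came first. Counts of CELF6 were 18646, 20789 and 11571 in CELF6-OE replicates 1 to 3, whereas each Control library had 0, where 0 allows up to 3 counts. Libraries held between 33748328 and 37920700 counts on genes, of which mitochondrial genes took 8.69% to 10.1%. The 8 epithelial and A549 markers were all measured, with KRT8 at an FPKM of 1643 to 2609 per library, and 4 of them (KRT8, KRT18, KRT19 and CDH1) were lower in CELF6-OE at adjusted p under 0.05. Of the markers of other cells, PTPRC, MS4A1, COL3A1, DCN and CDH5 stayed at an FPKM of at most 0.01. CD14 lay at 3.02 to 4.53 and did not pass the test, and ITGAM and PECAM1, at an FPKM of at most 0.59 and 0.06, were lower in CELF6-OE. COL1A1 lay at 0.22 to 0.42 and did not pass, and CDKN2A and CD3E had no entry under those symbols in the count table. The part of the marker genes in the results below was not tested.

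The inducible members rose in CELF6-OE and the organelle members did not pass the test. Of the 9 members tested, 4 were higher at an adjusted p under 0.05 (HSPA6, HSPA1A, HSPA1B and HSPA8) and none was lower. Among all 15847 genes tested, 6.47% were higher and 11.5% lower by the same rule. By the DEG rule in the methods of the study, which asks for p under 0.01 with a change of 1.5-fold or more, 3 members were up-regulated, against 1.36% of all genes up-regulated and 5.91% down-regulated. The median log2 fold change of the members was 0.13, and that of all genes tested was 0.011. No member was lower under edgeR's quasi-likelihood test at an unadjusted p under 0.05, nor at an adjusted p under 0.05 with DESeq2, limma-voom or edgeR's exact test. In RNA from whole cultures, a change in few cells and a smaller change in all cells cannot be told apart.

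The CELF6-OE libraries held 2594, 2739 and 1828 counts of HSPA6, and the Control libraries held 93, 77 and 87. Its FPKM, which scales fragments by transcript length and by the mapped fragments of the library, was 30.1, 31.2 and 21.8 with CELF6-OE (27.7 ± 5.12, SD, n = 3) against 1.04, 0.82 and 0.93 with the empty plasmid (0.93 ± 0.11, n = 3). Every CELF6-OE library lay far above every Control library, and CELF6-OE replicate 3 was the lowest of its group, as it was for CELF6. The change was 29.2-fold (95% interval 23.0 to 37.0), with an adjusted p of 5.18e-08 in edgeR's quasi-likelihood test. By p, HSPA6 ranked 1 among the genes tested. Its log2 fold change stayed between 4.78 and 5.01 when each library was left out in turn. The gene has a single exon on the plus strand of chromosome 1, from 161524540 to 161526894 on GRCh38, and an unnamed gene is annotated over it on the same strand.

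HSPA7 starts 81751 bases beyond the start of HSPA6 on the same strand and is annotated as an unprocessed pseudogene. CELF6-OE libraries held 1, 2 and 1 counts of it and each Control library 0, which is at or under the 3 counts that a 0 allows, so no fold is given. Of the 150-base windows of the HSPA7 transcript, 19% also stood exactly in a transcript of HSPA6. Of those of the HSPA6 transcript, 15.3% stood in HSPA7. The remaining windows of the HSPA6 transcript, which stand in no other annotated transcript, can hold reads with a unique location.

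HSPA1A had an FPKM of 87.3, 83.7 and 79.2 in CELF6-OE and of 51.5, 51.5 and 51.7 in Control. HSPA1B had an FPKM of 52.3, 53.2 and 52.3 in CELF6-OE and of 33.7, 34.2 and 34.3 in Control. In both genes the 3 Control libraries were nearly equal and the groups did not overlap. HSPA1A rose 1.58-fold (95% interval 1.44 to 1.74, adjusted p = 5.21e-05) and HSPA1B rose 1.51-fold (1.38 to 1.65, adjusted p = 6.28e-05) in edgeR's quasi-likelihood test. HSPA1B stood just past the fold change of 1.5, and without Control replicate 1 its log2 fold change was 0.56, under that threshold, with an adjusted p still under 0.05.

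These genes encode the same major inducible chaperone, with single exons on the plus strand of chromosome 6 whose starts lie 12195 bases apart. Of the 150-base windows of the HSPA1A and HSPA1B transcripts, 69.6% and 70.1% also stood in another annotated transcript, in each case that of the other gene or of an unnamed gene that overlaps HSPA1B. The authors counted reads with a unique location, so reads from these stretches may be missing or divided, and the separate levels are uncertain. With the counts of both genes summed, the log2 fold change was 0.64 (adjusted p = 5.06e-05). The ratio of HSPA1A to HSPA1B was 1.67, 1.57 and 1.51 in CELF6-OE and 1.53, 1.51 and 1.51 in Control.

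**Figure D2:**
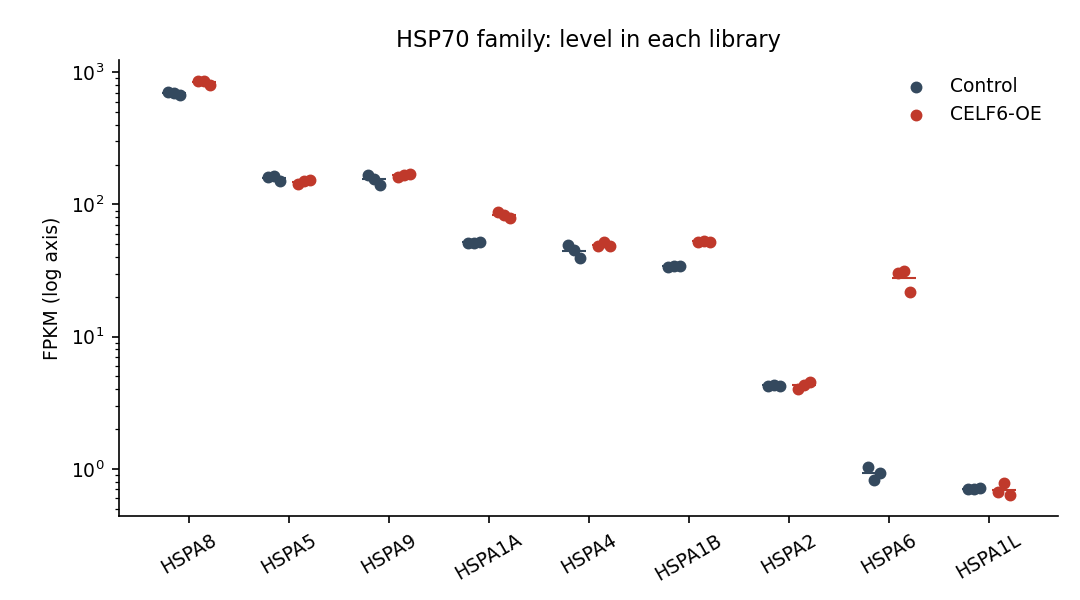
FPKM (log axis) of 9 HSP70 members in the 3 CELF6-OE and 3 Control libraries, with points for libraries and lines for group means, ordered by the Control mean. HSPA7, listed at 0 in Control, is left out. HSPA8 is highest, and HSPA6 moves from 0.93 in Control to 27.7 in CELF6-OE.

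HSPA8, which folds new proteins and uncoats clathrin vesicles, was the most abundant member, with an FPKM of 858, 864 and 806 in CELF6-OE and 711, 698 and 678 in Control. The groups did not overlap, with replicate 3 the lowest of each group. It rose 1.19-fold (95% interval 1.08 to 1.30), with an adjusted p of 0.0196 in edgeR's quasi-likelihood test. This call was lost without CELF6-OE replicate 1 (adjusted p = 0.0855), without CELF6-OE replicate 2 (0.087) and without Control replicate 2 (0.1), while the log2 fold change stayed between 0.23 and 0.27. In FPKM, the difference of HSPA8 was 146.9, larger than that of HSPA1A at 31.8, HSPA6 at 26.8 and HSPA1B at 18.5, although its fold was the smallest of these. The differences of HSPA1A and HSPA1B are uncertain because of their shared stretches.

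HSPA1L, a relative of HSPA1A known from the testis, starts 260 bases from HSPA1A on the opposite strand. Their promoter windows overlap, and the pair of heat shock units lies in both. CELF6-OE libraries held 62, 74 and 57 counts of HSPA1L and Control libraries 67, 70 and 71, so the groups overlapped. Its log2 fold change was -0.036 (95% interval -0.40 to 0.33), and the test did not call it. That interval lies below the log2 fold change of HSPA1A, 0.66, on the other side of the shared promoter, but the difference between the genes was not tested.

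HSPA2, another chaperone best known from male germ cells, had an FPKM of 4.03, 4.34 and 4.55 in CELF6-OE and 4.22, 4.34 and 4.26 in Control. Its log2 fold change was -0.018 (95% interval -0.19 to 0.15), and with library size alone as the scale it was 0.021. HSPA2-AS1 overlaps it on the opposite strand, and the strand setting of the counting is not given. HSPA4, a member of the HSP110 branch that works as an exchange factor, had an FPKM of 48.6, 51.9 and 48.4 in CELF6-OE and 49.5, 45.2 and 39.03 in Control. Its log2 fold change of 0.13 (95% interval -0.034 to 0.29) did not pass. The Control libraries of HSPA4 spread more widely than the distance between the group means.

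HSPA5, the main chaperone of the endoplasmic reticulum and a standard target of the unfolded protein response, had an FPKM of 143, 151 and 153 in CELF6-OE and 163, 163 and 150.3 in Control. The groups overlapped through Control replicate 3. The log2 fold change was -0.12 (95% interval -0.25 to 0.013), with an adjusted p of 0.195 in edgeR's quasi-likelihood test. HSPA9, which pulls proteins through the inner mitochondrial membrane and folds them in the matrix, had an FPKM of 161, 167 and 170 in CELF6-OE and 168, 157 and 140 in Control. Its log2 fold change of 0.075 (95% interval -0.070 to 0.22) did not pass. The intervals of HSPA5 and HSPA9 do not reach the changes of HSPA1A or HSPA1B.

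**Figure D3:**
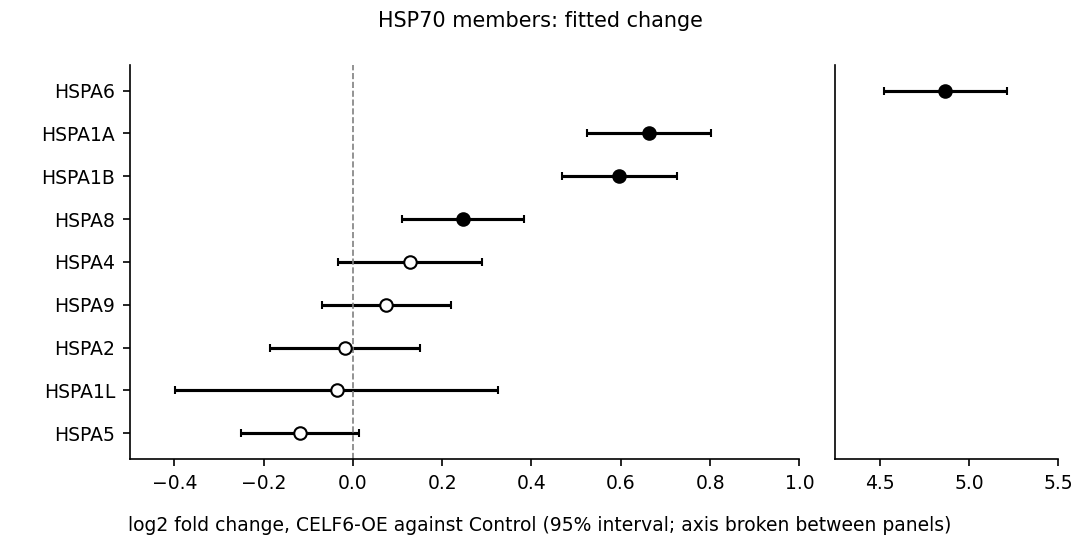
Fitted log2 fold change of the 9 tested HSP70 members, CELF6-OE against Control, with 95% intervals and a broken axis. Filled points have an adjusted p under 0.05. HSPA6 lies at 4.87, HSPA1A, HSPA1B and HSPA8 lie between 0.25 and 0.66, and the intervals of the other members include 0.

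The make-up of the family is described here without a test. Per length, the members summed to an FPKM of 1376 ± 37 in CELF6-OE and 1145 ± 42.5 in Control (SD, n = 3 each). HSPA8 supplied 60.3% to 61.9% of the sum across CELF6-OE libraries, against 60.1% to 61.7% across Control libraries, so its share overlapped. HSPA6 held 1.64% to 2.21% across CELF6-OE libraries, against 0.071% to 0.088% across Control libraries. HSPA1A held 5.93% to 6.30% against 4.36% to 4.71%. HSPA5, whose FPKM overlapped between the groups, held 10.3% to 11.5% with CELF6-OE against 13.7% to 14.1% with the empty plasmid. HSPA6, HSPA1A and HSPA1B together summed to 164 ± 8.96 in CELF6-OE and 86.6 ± 0.295 in Control. In Control HSPA1A exceeded HSPA6 by 49.5-fold to 62.8-fold in FPKM, and in CELF6-OE by 2.68-fold to 3.63-fold. Because of their shared stretches the levels of HSPA1A and HSPA1B are uncertain, and so are the sums, shares and ratios that use them.

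In Control, the order of levels by FPKM was HSPA8, HSPA5, HSPA9, HSPA1A, HSPA4, HSPA1B, HSPA2, HSPA6, HSPA1L and HSPA7. HSPA5 and HSPA9 overlapped in that group, while HSPA1A lay above HSPA4 in every Control library. In CELF6-OE, HSPA9 lay above HSPA5 in all 3 libraries, HSPA1B lay above HSPA4 in all 3, and HSPA6 stood above HSPA2. The places of HSPA1A and HSPA1B in these orders are as uncertain as their levels.

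**Figure D4:**
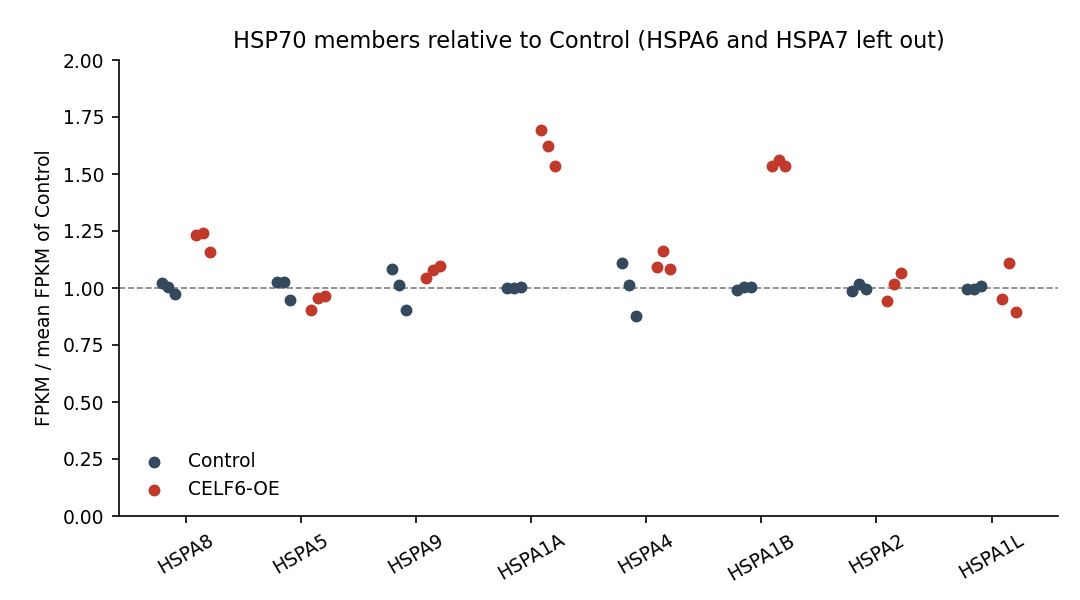
FPKM of 8 HSP70 members in each library, divided by the Control mean of the gene (dashed line at 1). HSPA6 and HSPA7 are left out. All CELF6-OE points of HSPA1A, HSPA1B and HSPA8 lie above all Control points, and the groups overlap for the other 5 genes. The share of all genes whose groups lie apart in this way was not counted.

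The partners and regulators of HSP70 were taken from 6 lists of 64 genes, of which 62 were tested. Of these, 8 were higher and 6 lower in CELF6-OE at an adjusted p under 0.05, or 12.9% and 9.68%, beside 6.47% and 11.5% of all genes. The median log2 fold change was 0.046. The number that rose depended on single libraries, with 5 genes without CELF6-OE replicate 1, 2 without CELF6-OE replicate 2, 5 without Control replicate 2 and 17 without Control replicate 1.

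Among 17 cytosolic co-chaperones tested, DNAJB1 and BAG3 rose and none fell. The share that rose was 11.8%, beside 6.47% higher and 11.5% lower among all genes. DNAJB1, the J-domain partner of inducible HSP70 and itself a heat shock gene, had an FPKM of 104, 100.4 and 93.4 in CELF6-OE and 61.5, 65.7 and 65.2 in Control. It rose by 0.60 on the log2 scale (adjusted p = 0.000196, edgeR's quasi-likelihood test), and it passed without each of the libraries in turn. BAG3, an exchange factor that links HSP70 to autophagy, had an FPKM of 55.8, 59.7 and 50.8 against 38.6, 40.5 and 44.3, with a log2 fold change of 0.40, and it lost the call without CELF6-OE replicate 2 (adjusted p = 0.0518). The other 15 did not pass, among them STIP1, which joins HSP70 to HSP90, at a log2 fold change of 0.19 (adjusted p = 0.0545), and DNAJA1 at -0.061. Of the 7 further members of the wider HSP70 and HSP110 group, 28.6% rose and none fell, beside the same shares of all genes. They were HSPH1, an exchange factor induced by heat, and HSPA14, a ribosome-associated relative, with log2 fold changes of 0.40 and 0.31. HSPH1 lost the call without CELF6-OE replicate 2 (adjusted p = 0.0636).

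Of the 11 partners in the endoplasmic reticulum that were tested, 4 fell (36.4%, beside 11.5% of all genes). None rose, beside 6.47% of all genes. The median log2 fold change was -0.069, beside 0.011 for all genes tested. SIL1, the exchange factor of HSPA5, had an FPKM of 16.0, 14.8 and 15.8 in CELF6-OE and 21.1, 21.3 and 21.5 in Control, and its log2 fold change was -0.49 (adjusted p = 0.000789, edgeR's quasi-likelihood test). The lectin chaperone CALR was at -0.40, the disulfide isomerase PDIA4 at -0.32 and the J-domain protein DNAJC1 at -0.33. DNAJC1 lost the call without CELF6-OE replicate 1 and without Control replicate 2, with an adjusted p of at most 0.0569. The groups did not overlap in any of these 4 genes, but the genes were picked by the test. Groups were also apart in FPKM for genes that did not pass, such as STIP1. The share of such genes in the whole table was not counted. HSP90B1 (-0.26, adjusted p = 0.077) and DNAJB9 (0.010) did not pass.

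Of the 11 mitochondrial partners tested, 1 was lower (9.09%, beside 11.5% of all genes) and none was higher (beside 6.47%). It was HSCB, a J-domain protein of iron-sulfur cluster assembly, at -0.26 (adjusted p = 0.049, edgeR's quasi-likelihood test). This call was lost without CELF6-OE replicate 1, 2 or 3 or Control replicate 2. The exchange factor GRPEL1 had a log2 fold change of 0.0092, and the chaperonins HSPD1 and HSPE1 had 0.17 and 0.12, and none of them passed. The HSF transcripts did not pass either, with HSF1 at -0.14 (adjusted p = 0.232) and HSF2 at 0.16 (adjusted p = 0.342).

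Of 12 other targets of HSF1, CHORDC1, HSP90AA1, FKBP4 and HSP90AB1 rose and SERPINH1 fell. These shares were 33.3% higher and 8.33% lower, beside 6.47% and 11.5% of all genes. HSP90AA1, the inducible cytosolic HSP90, had an FPKM of 475, 517 and 471 in CELF6-OE and 411, 375 and 314 in Control. It rose by 0.38 on the log2 scale and lost the call without CELF6-OE replicate 2 (adjusted p = 0.0513). CHORDC1, an HSP90 co-chaperone, was at 0.65, FKBP4, a prolyl isomerase that works with HSP90, at 0.29, and HSP90AB1 at 0.20. CHORDC1 and FKBP4 passed in 3 of the 6 fits that left out a library and HSP90AB1 in 2 of them. SERPINH1, the collagen chaperone of the endoplasmic reticulum, fell to a log2 fold change of -0.35 and passed in each of those fits. The small heat shock proteins HSPB1 (-0.064) and CRYAB (-0.10) did not pass. The median of this list was -0.0092, beside 0.011 for all genes tested.

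**Figure D5:**
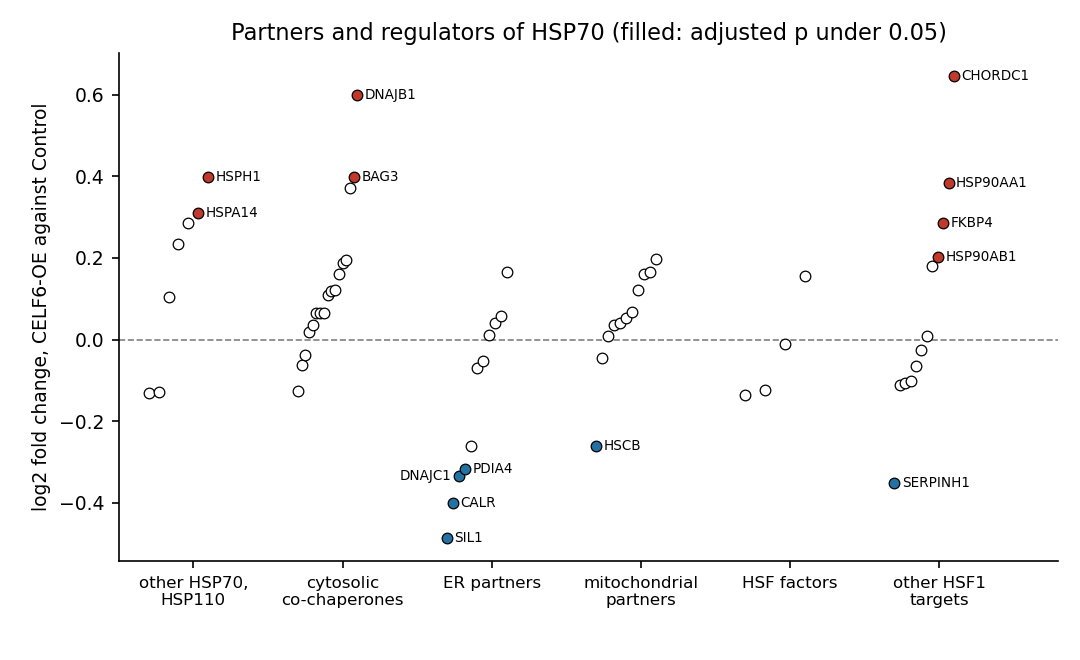
Log2 fold change, CELF6-OE against Control, of 62 partners and regulators of HSP70 in 6 lists. Filled points have an adjusted p under 0.05, red where higher and blue where lower. DNAJB1 at 0.60 and CHORDC1 at 0.65 are the highest, and SIL1 at -0.49 is the lowest.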

How the data were processed

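RNA-seq libraries of A549 cells, 3 CELF6-OE and 3 Control, were grouped by their labels. By the methods of the study, trimmed reads were aligned to GRCh38 in TopHat2, and those with a unique location were counted per gene. The counting tool, strand setting and gene annotation are not given in the sources used here. The authors deposited counts without normalization and FPKM values rounded to 2 decimals.

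Counts were scaled by TMM and tested with edgeR 4.0.16 (R 4.3.3) by the quasi-likelihood test with Benjamini-Hochberg adjustment over the 15847 genes kept by filterByExpr (minimum count 10), with a prior count of 0.125. Intervals at 95% use the standard error from the F statistic and the total degrees of freedom of the fit, and the prior degrees of freedom were 7.15. Over all 29889 genes they were infinite, so that fit is an alternative. Calls used an adjusted p under 0.05, and DEGs a p under 0.01 with a change of 1.5-fold or more. FPKM served for levels and shares. The total count per library sets the precision, and floors of 3 counts cover counting error only. The 3 replicates of a group are biological according to the methods. No pair within a group was a duplicate (chi-square per degree of freedom 7.67 to 29.3).

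Promoters are from RefSeq, gene models and transcripts from GENCODE v44, both on GRCh38. The named genes are the 10 members, CELF6, the markers and the 3 genes most like HSPA6. Also named are the genes of the 6 partner lists that passed and some, not all, of those next by p. HSPA4L, HSPA12A and DNAJB6 were among those next by p, with log2 fold changes above 0, and are not described. DNAJA1, HSP90B1, DNAJB9, GRPEL1, HSPB1 and CRYAB are named besides for their roles, after their values were seen. One marker gene is not reported here. Members and lists were chosen with earlier results of these data known. The procedure was tested on simulated data, where it missed some genes of low count among those given the largest change. A first limit on recovery was not met and was replaced after this was seen, with the procedure unchanged. Recovery of smaller changes is not given here. Alternatives were other scalings, filters and tests (limma 3.58.1 and DESeq2 1.42.0 among them), limma on log2(FPKM + 1) and log2(FPKM + 0.1), the replicate number as a block, other prior counts, removal of CELF6, and leaving out each library.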

Additional observations from a re-analysis of the deposited data

How the results depend on the processing

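HSPA6, HSPA1A and HSPA1B kept their direction and their call at an adjusted p under 0.05 in every alternative tried. By the DEG rule, HSPA1B was lost without Control replicate 1. HSPA8 kept its direction, with a log2 fold change of 0.229 to 0.285, and lost its call in 4 of 21 alternatives (adjusted p up to 0.1). HSPA1L was 0.0027 with library size only, and -0.127 to 0.021 with 1 library left out, positive only without CELF6-OE replicate 3. HSPA2 was 0.021 with library size only, 0.0080 with limma on log2(FPKM + 1) with and without a filter, 0.0093 with log2(FPKM + 0.1), and -0.0645 to 0.024 with 1 library left out, positive only without CELF6-OE replicate 1. Neither gene was called anywhere. Without a filter HSPA7 had an adjusted p of 0.307. The log2(FPKM + 1) scale gave HSPA6 a smaller change, 3.88, since a pseudocount compresses low values.

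Replicate numbers were shared by the groups, but the deviations of same-numbered libraries correlated at -0.011, -0.021 and -0.072 across genes, so the numbers gave no sign of pairing. With the replicate number as a block, 720 genes were higher and 1570 lower at an adjusted p under 0.05, and the calls of HSPA8 (adjusted p = 0.0835), HSP90AB1 (0.144) and HSCB (0.11) were lost, while no other member or partner lost its call.

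Over all genes, 1025 were higher and 1820 lower, and limma on log2(FPKM + 1) without a filter gave 535 and 987. Leaving out 1 library gave 281 to 1906 higher and 1032 to 2370 lower, with 378, 281 and 624 higher without CELF6-OE replicates 1, 2 and 3, 287 without Control replicate 2 and 1906 without Control replicate 1. By the DEG rule, 216 were higher and 936 lower. Limma on log2(FPKM + 1) gave 61 and 418 with a filter and 57 and 396 without, a fold change of 2 gave 65 and 480, and leaving out 1 library gave 155 to 348 higher. Among the partners, 2 to 17 rose and 4 to 7 fell when 1 library was left out. The cause of these shifts was not tested. With 3 libraries a group, changes as small as that of HSPA8 lie near the limit of the test.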

Other observations

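CELF6 was left out of the search for genes whose log2 CPM followed HSPA6 most closely over the 6 libraries. The closest were RP9 (Pearson's r 0.9985), EMP2 (0.9980) and NUDT3 (0.9973), given as a description without a test. Their changes were far smaller than that of HSPA6. For EMP2, a tetraspan membrane protein, CELF6-OE libraries held 1545, 1622 and 1503 counts and Control libraries 1421, 1426 and 1388. The log2 fold change of EMP2 was 0.21. NUDT3, a diphosphoinositol phosphatase, had 1576, 1657 and 1477 against 1277, 1280 and 1263, a log2 fold change of 0.37. RP9 had a log2 fold change of 0.19 and did not pass (adjusted p = 0.0904). The 6 libraries fall into the study's 2 groups, which these correlations span.

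The count table held 8 genes with the symbol of a numbered HSPA pseudogene, HSPA7 not among them. None had more than 3 counts in a library, and together they had 10 counts in CELF6-OE and 7 in Control.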
